A study of Saccharomyces cerevisiae with 1 sample.

Results

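The 9 snoRNAs described here, SNR18, SNR24, SNR39, SNR39B, SNR50, SNR58, SNR59, SNR60 and SNR61, are yeast box C/D guides for the 5′ part of the 25S rRNA. They were chosen by name, as the guides whose known targets all lie in this part and which do not belong to the SNR72 to SNR78 gene cluster. All 9 were found among the 67 RNAs of the snoRNA class for which hits were available. The values come from 1 CRAC library of the strain BY4742, a laboratory strain of Saccharomyces cerevisiae that carries no tagged protein. Cells were grown to an OD of 0.6 in minimal medium with glucose and without tryptophan, and RNA was cross-linked to protein in vivo. CRAC recovers the RNA fragments that stay attached to a tagged protein through native and denaturing purification steps. In the untagged strain it recovers the background of the procedure, so the values below are background levels and not binding to a protein under study. The library of the tagged protein was not analysed here. There were no replicates, so the values carry no standard deviation and no difference was tested.

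Box C/D snoRNAs are short RNAs that carry conserved C and D boxes and assemble with Nop1, Nop56, Nop58 and Snu13. A stretch upstream of box D, or of a second box called D′, pairs with the rRNA, and the methyltransferase Nop1 (fibrillarin in animals) then methylates the ribose of the paired nucleotide that lies at a fixed distance from the box. In yeast most of these RNAs are transcribed from genes of their own, some are cut out of a transcript that carries several snoRNAs, and a few are released from the introns of protein-coding genes.

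The rRNA nucleotides that the 9 snoRNAs guide lie in 9 stretches of the 25S rRNA. These stretches are shown because they link each snoRNA to the rRNA pileup described further on. They were read from the deposited 25S sequence, with T for U, 15 nucleotides on each side, and the guided nucleotides in capitals. The nucleotides themselves were taken from general knowledge of the yeast methylation map, and the base at each of the 12 was the one expected from that map. The 25S gene of the pileup is RDN25-1, placed by RefSeq on the minus strand of chromosome XII (R64, 451786 to 455181), and positions are counted from its first nucleotide.
SNR18, nucleotides 634 to 665: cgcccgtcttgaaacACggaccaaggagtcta
SNR58, nucleotides 648 to 678: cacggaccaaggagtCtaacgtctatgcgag
SNR39B (G) with SNR39 and SNR59 (A), nucleotides 790 to 822: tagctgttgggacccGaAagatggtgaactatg
SNR60, first site, nucleotides 802 to 832: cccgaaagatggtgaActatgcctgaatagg
SNR50, nucleotides 852 to 882: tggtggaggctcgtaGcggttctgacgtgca
SNR60, second site, nucleotides 893 to 923: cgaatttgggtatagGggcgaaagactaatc
SNR61, nucleotides 1118 to 1148: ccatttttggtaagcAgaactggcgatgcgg
SNR24, first site, nucleotides 1422 to 1452: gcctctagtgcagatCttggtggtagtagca
SNR24, other sites, nucleotides 1434 to 1465: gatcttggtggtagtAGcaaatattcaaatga
Several stretches overlap. SNR39 and SNR59 guide the same adenosine, and SNR39B guides the guanosine 2 nucleotides upstream of it.

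The 9 snoRNAs together received 5328 hits per 1000000 reads (RPM) in the control, which was 17.4% of the 30680 RPM of the snoRNA class and 0.533% of all hits. They make up 13.4% of the RNAs in the table. SNR61 alone had 2690 RPM, or 50.5% of the hits of the 9 snoRNAs. Without SNR61, the other 8 held 9.42% of the remaining snoRNA hits and made up 12.1% of the remaining 66 RNAs. The share of the group was therefore above its share of RNAs with SNR61 and below it without.

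Hits differed widely among the 9 snoRNAs. SNR61 ranked 2 of 67, between SNR128 (3923 RPM) and SNR75 (2433 RPM), which were the other two of the 3 highest RNAs. SNR39B had 751 RPM and ranked 11, and SNR60 had 674 RPM and ranked 12. SNR50 followed with 386 RPM at rank 23. In the middle of the table, SNR39 had 307 RPM (rank 28) and SNR58 had 247 RPM (rank 30). SNR24 and SNR59 stood next to each other at ranks 48 and 49, with 115 and 113 RPM. SNR18 was the lowest of the group, with 45 RPM at rank 62. The highest value was 59.8 times the lowest. In this order SNR39B exceeded SNR60 by 1.11-fold and SNR24 exceeded SNR59 by 1.02-fold, whereas SNR61 exceeded SNR39B by 3.58-fold. Which of these neighbours would keep their order in another library cannot be told from 1 library.

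**Figure D1:**
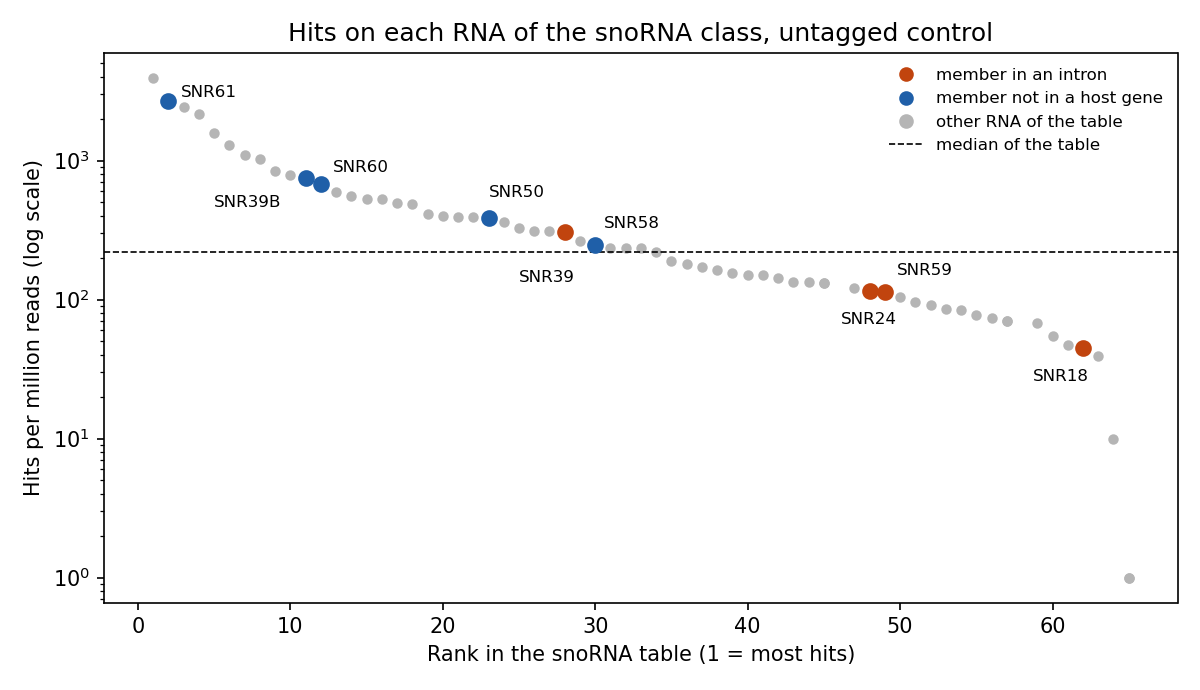
Hits per 1000000 reads (log scale) of the RNAs of the snoRNA class against their rank in the untagged control. Orange and blue points are the 9 guides for the 25S 5′ part, with and without a host gene, grey points are other RNAs, the dashed line is the median of 219 RPM, RNAs with equal values overlap, and SNR64, listed at 0, is not drawn. SNR61 stands at rank 2 with 2690 RPM, and the other 8 guides lie between rank 11 and rank 62.

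The median of the 9 snoRNAs was 307 RPM, against 184.5 RPM for the other 58 RNAs, a ratio of 1.66. Of the 9, 6 lay above the median of the whole table, 219 RPM, and SNR24, SNR59 and SNR18 lay below it. Among the other 58 RNAs, 27 lay above it. The quartiles were 115 and 674 RPM for the 9 snoRNAs and 93 and 465 RPM for the other RNAs. The spread of the 9, as the SD of log2(RPM + 1), was 1.75, against 2.27 for the other RNAs. The lowest of the 9 had 45 RPM, while the other RNAs include SNR64 at 0 and SNR191 at 1 RPM. Such low values add to the SD on this scale, so it does not show that the 9 vary less. Box C/D guides for the 3′ part of the 25S rRNA are the group most like them in kind. The 12 RNAs of that list (SNR13, SNR38, SNR48, SNR62 to SNR69 and SNR71) had a median of 211 RPM, from SNR64 listed at 0 to 1300 RPM for SNR38. The medians of the lists thus differed by less than the range within either list. SNR40 and SNR72 also have a target in the 5′ part, but SNR40 has a second target in the 18S rRNA and SNR72 belongs to the gene cluster. They had 1020 and 233 RPM, within the range of the 9 snoRNAs.

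The genes of the 9 snoRNAs are short, from 78 nucleotides (SNR59) to 104 nucleotides (SNR60) in the R64 annotation, against a median of 107 nucleotides for the table, whose RNAs reach 606 nucleotides. Hits were therefore also divided by RNA length. On this scale SNR61 had 29.9 RPM per nucleotide and kept rank 2. SNR39B (7.82 RPM per nucleotide) ranked 9 and SNR60 (6.48) ranked 10. SNR50 had 4.29, SNR39 had 3.45 and SNR58 had 2.57 RPM per nucleotide. SNR59 (1.45 RPM per nucleotide) was now above SNR24 (1.29), and SNR18 remained last with 0.441. Of the 9, 6 were above the median of the table on this scale, as they were without the division. The share of the 9 snoRNAs in the length-scaled table was 20.8%. This share includes SNR61, with 29.9 RPM per nucleotide against at most 7.82 for the other 8. Without SNR61 it was not computed on this scale, so it does not show an excess of the group as a whole.

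Hits were also compared between gene arrangements, and the 3 lowest of the 9 snoRNAs were all intron-encoded. SNR18, SNR24, SNR39 and SNR59 are encoded in introns, and in the RefSeq annotation each lies within the span of its host gene on the same strand. SNR18 (chromosome I, 142367 to 142468) lies in EFB1, which encodes a translation elongation factor subunit. SNR24 (chromosome XIII, 499984 to 500072) lies in ASC1, the gene of a protein of the small ribosomal subunit. SNR39 (chromosome VII, 365163 to 365251) lies in RPL7A and SNR59 (chromosome XVI, 173827 to 173904) in RPL7B, a pair of duplicated genes for a protein of the large subunit. The other 5 snoRNAs lie in no host gene.

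The intron-encoded snoRNAs had 45 RPM (SNR18), 113 RPM (SNR59), 115 RPM (SNR24) and 307 RPM (SNR39). The snoRNAs without a host gene had 247 RPM (SNR58), 386 RPM (SNR50), 674 RPM (SNR60), 751 RPM (SNR39B) and 2690 RPM (SNR61). The groups overlapped in 1 place, since SNR39 exceeded SNR58 by 1.24-fold. The medians were 114 RPM for the 4 intron-encoded snoRNAs and 674 RPM for the other 5, a ratio of 0.169. Per nucleotide of RNA the medians were 1.37 and 6.48 RPM. Leaving out SNR61, the other group had a median of 530 RPM and the ratio was 0.215. Intron-encoded snoRNAs took 10.9% of the hits of the 9. These values describe the 9 snoRNAs of 1 library, and the difference has no test. How reads in an intron were divided between the snoRNA and its host gene is not given in the sources used here.

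Low values did not extend to every intron-encoded snoRNA of the table. RefSeq placed 3 further RNAs of the table within a host gene on the same strand. SNR38, which guides the 3′ part of the 25S rRNA, had 1300 RPM and ranked 6. SNR54 had 394 RPM, and SNR191, a box H/ACA snoRNA, had 1 RPM. Over all 7 intron-encoded RNAs the median was 115 RPM, against 226 RPM for the other 60. These 7 include the 4 guides of the 5′ part, and the 3 further RNAs alone had a median of 394 RPM. The values of SNR38 and SNR54 were above those of all 4 intron-encoded guides of the 5′ part.

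**Figure D2:**
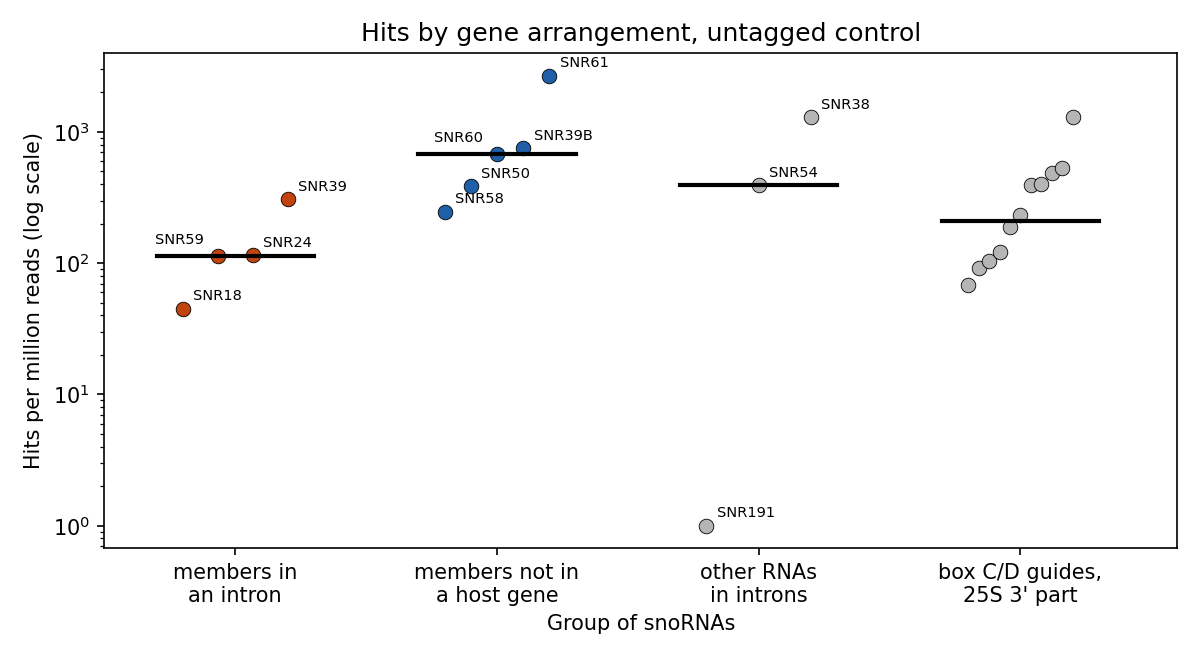
Hits per 1000000 reads (log scale) of snoRNAs grouped by gene arrangement in the untagged control, 1 point per snoRNA, with the median of each group as a black line. The 4 intron-encoded guides of the 25S 5′ part have a median of 114 RPM and the 5 without a host gene 674 RPM, with SNR39 above SNR58. SNR64, listed at 0, is not drawn but counts in the median of its group.

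SNR39, SNR39B and SNR59 act on the same or neighbouring nucleotides, and their values are set side by side here. SNR39 and SNR59, which guide the same adenosine from introns of duplicated genes, had 307 and 113 RPM, so SNR39 was 2.72 times as high. Their summed value was 420 RPM. SNR39B, which guides the nearby guanosine, had 751 RPM. Its gene (chromosome VII, 366374 to 366469) lies 377 nucleotides from RPL7A on the same strand, upstream of the gene that carries SNR39. SNR39B was 2.45 times as high as SNR39, and 2.27 times as high per nucleotide. Whether reads of SNR39 and SNR59 can be mistaken for one another was not tested, since the snoRNA sequences were not analysed here.

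SNR61 is not transcribed alone. Its gene (chromosome XII, 794486 to 794575) is the last of 3 snoRNA genes on the minus strand, after SNR57 and SNR55, with gaps of 142 and 121 nucleotides between the genes. These 3 snoRNAs are known to be made from 1 transcript. SNR57 had 163 RPM, SNR55 had 142 RPM and SNR61 had 2690 RPM. SNR61 was thus 16.5 times as high as SNR57 and 18.9 times as high as SNR55, while SNR57 and SNR55 differed by 1.15-fold. The RNAs have similar lengths, and per nucleotide SNR61 was 16.1 times as high as SNR57 and 20.6 times as high as SNR55. Wide differences also occurred in other snoRNA gene runs, defined as genes on 1 strand with gaps under 300 nucleotides. There were 5 such runs, and the ratio of the highest to the lowest snoRNA was 28.1 in SNR41-SNR70-SNR51, 18.4 in the SNR72 to SNR78 cluster, 11.96 in SNR190-SNR128 and 1.12 in SNR67-SNR53. The ratio of 18.9 in the run of SNR61 lay within this range.

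**Figure D3:**
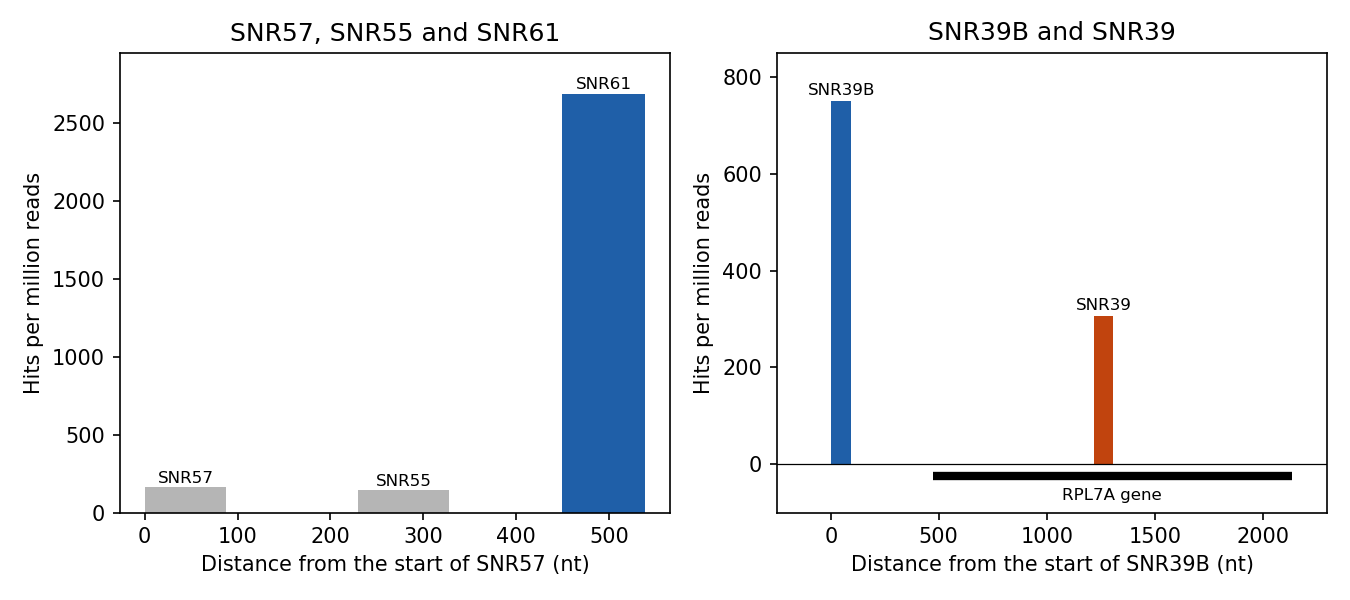
Hits per 1000000 reads (bar height) of neighbouring snoRNA genes in the untagged control, drawn to scale along the direction of transcription, with the distance in nucleotides on the horizontal axis. In the left panel SNR61 has 2690 RPM after SNR57 (163) and SNR55 (142). In the right panel SNR39B has 751 RPM and SNR39, within RPL7A (black line), has 307 RPM.

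SNR50, SNR58 and SNR60 are single genes. SNR60 (chromosome X, 349130 to 349233) had 674 RPM, 1.75 times the value of SNR50 (chromosome XV, 259489 to 259578). SNR50 was 1.56 times as high as SNR58 (chromosome XV, 136088 to 136183). The annotation places a protein-coding gene, YJL047C-A, across 49 nucleotides of SNR60 on the same strand, and reads there could have been assigned to either. No gene other than a host gene overlaps the other 8 snoRNAs. The guides with more than 1 site were not the highest. SNR24 guides 3 nucleotides and had 115 RPM, SNR18 guides 2 and had 45 RPM, and SNR60 guides 2 and had 674 RPM.

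The pileup of the 25S rRNA gave a second readout at the sites of these snoRNAs. It counts how many reads cover each rRNA nucleotide, and 1 read covers several neighbouring nucleotides. The setting of 100000 reads named for it could be a scaling or a limit on the reads used. Its values are not on the scale of RPM. Reads on mature rRNA and on precursors are not told apart. Across the 25S rRNA, 3396 nucleotides long, the median was 170 hits per nucleotide. Between the first and the last guided nucleotide the median was 118 hits over 802 nucleotides, and this stretch held 5.47% of the 25S hits in 23.6% of its length.

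Most guided nucleotides had few hits. Over windows of 10 nucleotides on each side, 10 of the 12 guided nucleotides had a mean below the median of the 25S rRNA. The share of all 25S windows with a mean below that median was not computed, so this count cannot be called unusual. The median of the 12 means was 82.7 hits, or 0.486 of the 25S median. Windows of neighbouring guided nucleotides overlap, so the 12 are not separate observations. The region itself was low. Outside the windows, the nucleotides between the first and the last guided one had a median of 123 hits, also below the 25S median. Against 118 hits, the median of all nucleotides from the first to the last guided one, 10 of the 12 window means were likewise lower. The SNR18 sites were lowest, with means of 34.0 and 38.7 hits. Both nucleotides had 46 hits, and nucleotides without any hit lay in the same windows. At the SNR61 site the mean was 66.6 hits (0.392 of the 25S median), with 76 hits at the guided adenosine. Whether hits at a site follow the hits of its guide was not tested. The means at the 3 SNR24 sites were 80.2, 74.0 and 85.1 hits. At the SNR58 site it was 98.2 hits. The site of SNR39B had a mean of 111 hits and the neighbouring site of SNR39 and SNR59 one of 107 hits, with 108 hits at each guided nucleotide.

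The sites of SNR50 and the second site of SNR60 were the exceptions. At the SNR50 site the mean was 271 hits, 1.59 times the 25S median, and the guided guanosine had 381 hits. At the second SNR60 site the mean was 736 hits, 4.33 times the 25S median and above the hits of 80.2% of the 25S nucleotides, with 744 hits at the guided guanosine. The first SNR60 site had a mean of 74.5 hits (0.438 of the median), so the sites of this snoRNA lay on opposite sides of the median. The highest value between the first and the last guided nucleotide, 3015 hits at nucleotide 716, lay 53 nucleotides from the nearest guided nucleotide.

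**Figure D4:**
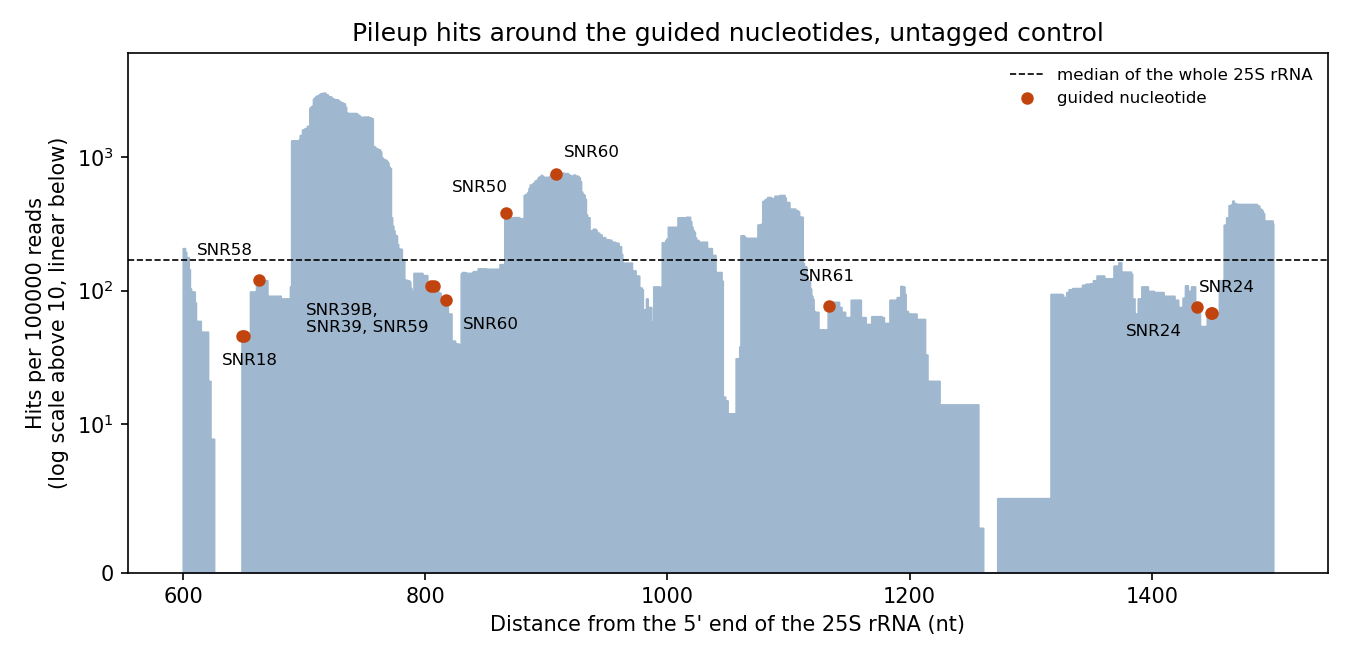
Pileup hits, labelled per 100000 reads (log scale above 10, linear below), against the distance from the 5′ end of the 25S rRNA in nucleotides, in the untagged control. Orange points mark the 12 guided nucleotides, labelled with their snoRNAs, and the dashed line is the 25S median of 170 hits. Only the SNR50 site and the second SNR60 site lie above this line.

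Substitutions and deletions, which in CRAC can mark a cross-linked nucleotide, were absent from most guided nucleotides. At 10 of the 12 (83.3%) no hit carried a change, and none of the 12 carried a deletion. Nucleotides without a change were also common elsewhere. They made up 47.7% of the 3357 nucleotides of the 25S rRNA with a hit, and 72.0% of the 757 nucleotides with 46 to 119 hits, the range of the 10 unchanged guided nucleotides. Of these 757 nucleotides, 95.6% had no deletion. The guided nucleotides are too few to be set apart from nucleotides of like coverage, and this difference was not tested. The guanosine guided by SNR50 had 17 substitutions in 381 hits (4.46%), and the guanosine at the second SNR60 site had 3 in 744 hits (0.403%). Over the whole 25S rRNA 1.08% of hits carried a change, and 0.953% did so between the first and the last guided nucleotide. With 46 to 119 hits at the unchanged nucleotides, and the number of reads behind them unknown, a rate as low as that of the whole 25S rRNA could not be told from 0. Within 10 nucleotides of the guided nucleotides, changes made up 4.20% and 3.69% of hits in the overlapping SNR18 windows. Each of these windows held 30 changes, over summed hits of 714 and 812. The SNR58 window, which overlaps them in part, held 31 changes, or 1.50% of its hits. In the window of the first SNR24 site changes made up 2.79% of hits, and in those of the last SNR24 sites 0.258% and 0.224%.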

How the data were processed

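One CRAC library of the untagged strain was analysed. According to the methods, the authors removed barcodes, adapters and poor reads with Flexbar, aligned with Novoalign and counted with pyCRAC, after 16 PCR cycles per the labels. The submitters' processing notes name the genome build R64. The authors deposited hits per snoRNA and per RNA class in RPM, as whole numbers that sum to 1000000 over the classes, and a 25S pileup per 100000 reads, treated as a score. The options named for these values could be a scaling or a limit on the reads used. The smallest snoRNA value above 0 is 1, and all whole numbers up to 30 occur among the 25S substitutions, so no step gives a number of reads. The depth is unknown, reads amplified by PCR are not independent molecules, and no counting interval is given.

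RefSeq's R64 table held the symbols of all 67 RNAs and gave coordinates, lengths and, through the locus tags, strands. Ranks, shares, medians and window means were computed with Python 3.11.15, numpy 2.4.6 and pandas 2.3.3, and figures with matplotlib 3.10.9. Functions for ranks, shares and window means were tested on simulated data, and group medians were not. The group shares and the window means at guided nucleotides were computed by separate code, which that test did not cover. Hits per nucleotide are RPM divided by gene length. Methylated nucleotides could not be searched for from snoRNA sequences, which were not analysed here, so published positions known in general were used, a choice made after the files were seen. The members and lists were chosen with earlier results of these data known. All 9 guides are named, with their rank neighbours where needed, the 3 highest RNAs, host genes and snoRNAs of the same transcript. YJL047C-A, the other intron-encoded RNAs, SNR40, SNR72 and the other gene runs were named to describe overlaps or lists.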

Additional observations from a re-analysis of the deposited data

How the results depend on the processing

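With 1 library of unknown depth, any difference from the reported value counts as a move. None of the group ratios listed below crossed 1 under the alternatives run. Among the ratios of single snoRNAs, SNR24 over SNR59 did, with 1.02 by RPM and 0.892 per nucleotide. The comparison of the group's share of hits with its share of RNAs turned in 1 case, without SNR61 (17.4% against 13.4% with it, 9.42% against 12.1% without it). The share of the 9 snoRNAs in the snoRNA hits, 17.4%, was 17.5% without NME1, 19.9% without the highest RNA, 20.8% per nucleotide of RNA length, 9.42% without SNR61 and 0.533% of all 6 classes. Leaving out each of the 9 in turn gave 9.42% to 17.2%. A minimum of 10 RPM removed none of the 9, so it could not change their median of 307 RPM. Their mean was 592 RPM, and leaving out each in turn gave medians of 277 to 346.5 RPM. The ratio of their median to that of the other RNAs, 1.66, was 1.40 with that minimum and 1.35 for means. It was 2.34 per nucleotide and 1.50 to 1.88 leaving out each in turn. The ratio of intron-encoded to other members of the group, 0.169, was 0.211 per nucleotide, 0.153 for means, 0.176 and 0.189 for means of log2 with 1 and 10 RPM added, 0.215 without SNR61, and 0.160 to 0.215 leaving out each in turn. The median window at guided nucleotides, 0.486 of the 25S median, was 0.461 with 5 and 0.567 with 20 nucleotides each side, 0.474 for the guided nucleotide alone, 0.701 of the median between the first and the last guided nucleotide, and 0.0534 of the 25S mean. The alternatives for the ratio to the other RNAs, the leaving out of members from the share, the total of 6 classes and the single guided nucleotide were added after seeing the data. Both alternatives of the guide search were not run, since snoRNA sequences were not analysed here. No paired analysis was possible because the control is a single library.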
